A study of Mus musculus with 2 samples.

Results

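The genes described here carry proteins into the endoplasmic reticulum (ER), fold them there and load them into COPII vesicles for the Golgi. They were taken by gene symbol, as the Sec, Ssr, Pdia, Sar1, Tram and Spcs families together with *Hspa5*, *Hsp90b1*, *Calr*, *Canx*, *Hyou1*, *Xbp1* and *Creb3l2*. The choice was made with earlier results of these data known. It gave 49 of the 18194 genes with a single-gene probe set, read by 105 of the 45101 probe sets of an Affymetrix mouse expression array. One array held RNA of G9a-KO embryonic stem cells (ESCs) and 1 array held RNA of WT ESCs. The WT cells were TT2, an ESC line derived from a cross of C57BL/6 females with CBA males. The G9a-KO cells were TT2-derived and had 1 older mutant allele of G9a (gene *Ehmt2*) and 1 floxed allele, from which Cre removes exons 26 and 27 that encode the catalytic core of this histone H3K9 methyltransferase. The labels give both samples the same text on 4-hydroxytamoxifen (800 nM for 48 h, then 48 h without it), so whether the WT cells received it is not stated, nor is the number of clones. The study's methods instead describe a G9a-KO line grown on inactivated mouse embryonic fibroblasts, with no drug named for it, and which of these cultures gave the RNA was not settled.

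Secreted and membrane proteins enter the ER through the Sec61 channel, lose their signal peptide to signal peptidase, and are folded by chaperones and by protein disulfide isomerases, which form and rearrange disulfide bonds. Correctly folded cargo leaves at ER exit sites in vesicles coated by COPII, which the GTPase SAR1 assembles from SEC23, SEC24, SEC13 and SEC31. When unfolded protein accumulates, sensors of the unfolded protein response raise the expression of many of these genes through transcription factors such as XBP1 and ATF6. Cells that secrete much matrix, such as those of the endoderm that lines the blastocyst, carry a large secretory apparatus.

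Levels below are log2 values relative to the 75th percentile of all probe sets on the same array, and each difference is the G9a-KO level minus the WT level (log2), by the brightest probe set of the gene. Neither group had a second array, so the differences have no replicate check, cannot be set against culture-to-culture error and carry no p-value. The 18 probe sets for spiked-in control RNA, a partial guide to technical spread, differed by -0.16 to 0.21 (SD 0.11). Of the 49 genes, 39 had a mean level above the 75th percentile, against 38.2% of all genes, and 4 (*Pdia2*, *Sec16b*, *Sec14l3* and *Sec1*) did not exceed the median of all probe sets on either array. *Ehmt2* itself lay at 0.51 on the G9a-KO array and 2.05 on the WT array (2.90-fold lower in G9a-KO), and its second, dim probe set differed by 0.20 in the opposite direction. ESC markers were present on both arrays, with all 17 above the median, of which 4 were over 1.3-fold higher and 7 lower. Over all genes 17.4% were higher and 17.2% lower, and over genes above the 75th percentile 21.1% and 23.2%. Among the 17 markers, *Klf5* (2.60-fold) and *Tbx3* (2.25-fold) were higher and *Lin28a* (2.45-fold) was lower.

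At the 1.3-fold threshold that the study used for this pair, 17 of the 49 genes (34.7%) were higher in G9a-KO and 8 (16.3%) were lower. Over all genes the shares were 17.4% higher and 17.2% lower, and over the 6956 genes above the 75th percentile, which resemble most members in level, 21.1% and 23.2%. At 2-fold, 5 were higher and 0 lower, where all genes gave 4.61% higher and 3.76% lower and the brighter genes 4.93% and 3.90%. The median difference of the 49 genes was 0.17, against 0.036 over all genes and -0.013 over the brighter genes. Centring each array on its median, which lowers every difference by 0.10, changed the counts at 1.3-fold to 15 higher and 11 lower. The genes differed by role. Most chaperone and disulfide isomerase genes (8 of 10) and both transcription factors were higher, and the Sec22 genes were lower. The channel went both ways, as did the COPII coat when counted with genes of the ER exit sites.

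**Figure D1:**
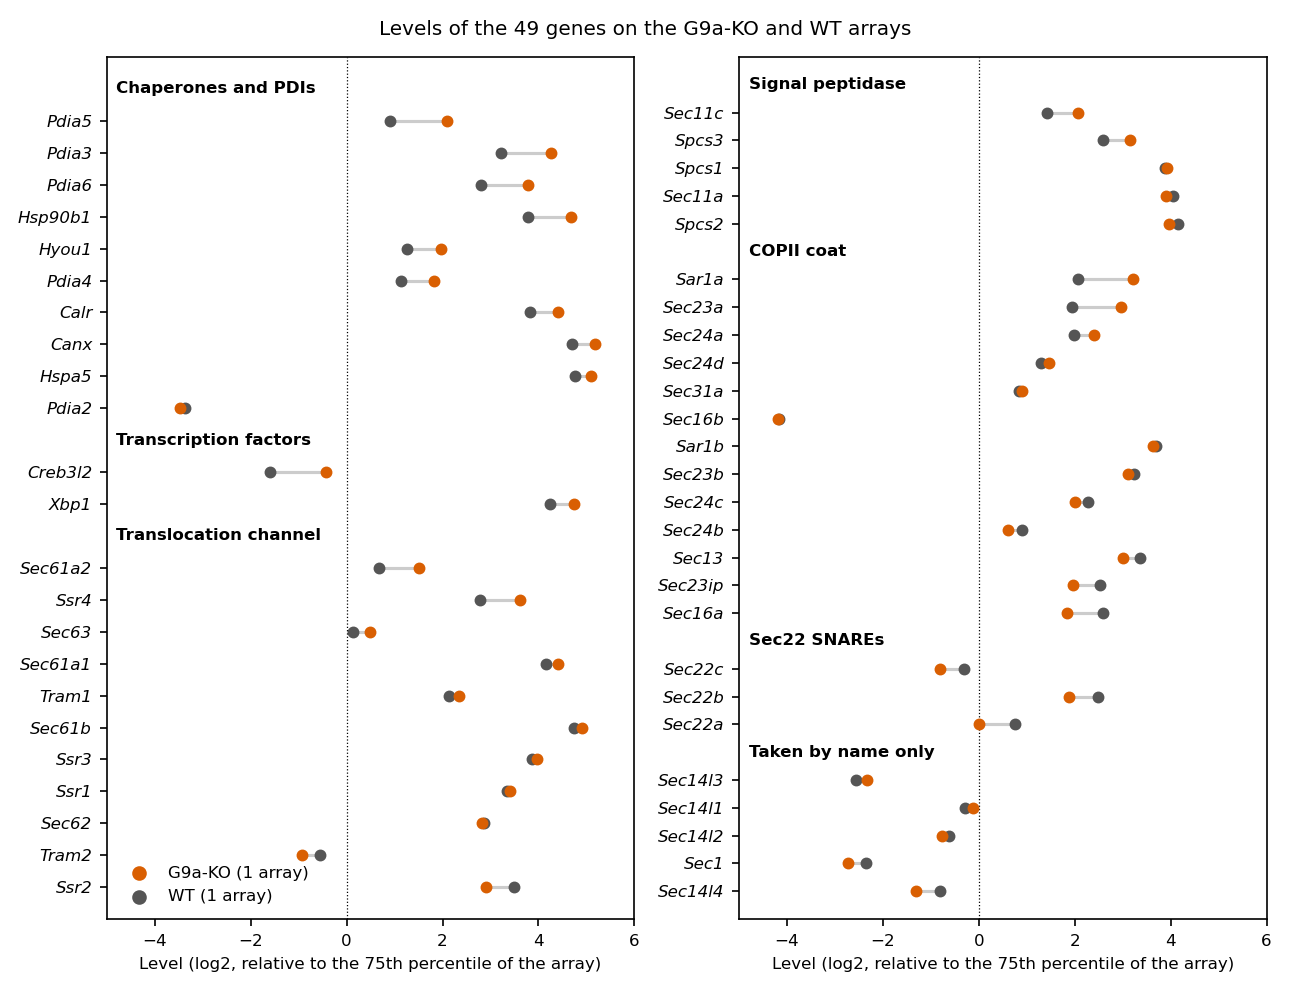
Level of each of the 49 genes (horizontal axis, log2 above or below the array's 75th percentile, dotted line at 0) on the G9a-KO array (orange) and the WT array (grey), 1 point per array, grouped by role and ordered by the difference. In the chaperone and disulfide isomerase group the orange point lies right of the grey one for every gene except *Pdia2*, and in all 3 Sec22 genes it lies left.

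Chaperones and disulfide isomerases made up 8 of the 17 higher genes. Of these 10 folding genes, 8 were past 1.3-fold in the direction of G9a-KO and 0 in that of WT, and their median difference was 0.70 (1.62-fold). The other scalings put this median between 0.60 and 0.72, and the count at 7 when each array was centred on its median.

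Among the protein disulfide isomerases, *Pdia5* lay at 2.09 on the G9a-KO array and 0.91 on the WT array, the largest difference of all 49 genes (1.18, 2.27-fold). *Pdia3*, whose product ERp57 works on glycoproteins held by calnexin and calreticulin, lay at 4.26 on the G9a-KO array and 3.21 on the WT array (2.07-fold). It fell under 2-fold with no shift (0.99 on the log2 scale), under median centring (0.95) and with the mean over probe sets (0.63). *Pdia6* had levels of 3.79 in G9a-KO and 2.79 in WT (1.99-fold, just under the 2-fold line). *Pdia4*, another isomerase with several thioredoxin-like domains, was at 1.82 in G9a-KO and 1.13 in WT (1.61-fold). The exception was *Pdia2*, an isomerase typical of the pancreas, which was dim on both arrays (-3.48 in G9a-KO and -3.38 in WT). The second probe sets of *Pdia3*, *Pdia4* and *Pdia6* were dim and ran the same way with smaller differences (0.20, 0.23 and 0.59).

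The chaperone genes differed by 0.32 to 0.90. *Hsp90b1*, the ER form of HSP90, lay at 4.68 in G9a-KO and 3.77 in WT (1.87-fold), and its second probe set gave 1.01 on the log2 scale. *Hyou1*, which releases ADP from BiP, was at 1.97 in G9a-KO and 1.27 in WT (1.63-fold). *Calr*, the soluble lectin chaperone calreticulin, had 4.40 in G9a-KO and 3.82 in WT (1.49-fold), and all 3 of its probe sets lay between 0.47 and 0.58. *Canx*, its membrane-bound relative calnexin, had 5.17 in G9a-KO and 4.71 in WT (1.38-fold), with 1.02 and 0.58 by its other probe sets. Under median centring *Canx* was within 1.3-fold (0.37). *Hspa5*, which encodes BiP and is the classical target of the unfolded protein response, stayed within 1.3-fold, at 5.09 in G9a-KO and 4.77 in WT (0.32). One further probe set of *Hspa5* gave 0.35 and the third -0.036. *Hspa5* thus showed less difference than 8 of the 10 folding genes, among them all isomerases except *Pdia2*.

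The promoters of several folding genes are shown because the ER stress response element (ERSE), through which ATF6 acts, was described there. RefSeq windows of 250 bases before to 50 after the gene start (build GRCm38.p6) were found for 42 of the 49 genes. The ERSE, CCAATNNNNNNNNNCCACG on either strand, was in the windows of 5 of these 42, and all 5 were among the 9 folding genes with a window. Of all 27025 genes with a window, 37 (0.137%) held it. The stretches below run 5′ to 3′ on the strand of the gene and end before the gene start, with the fixed letters of each ERSE in capitals. They come from chr2:34771985-34772083, plus strand (*Hspa5*), chr10:86705493-86705694, minus strand (*Hsp90b1*), chr12:17266451-17266549, plus strand (*Pdia6*), chr8:84847035-84847133, minus strand (*Calr*) and chr11:50325760-50325858, minus strand (*Canx*).
Hspa5: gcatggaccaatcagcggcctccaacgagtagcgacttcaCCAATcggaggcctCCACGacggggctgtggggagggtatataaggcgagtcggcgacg
Hsp90b1: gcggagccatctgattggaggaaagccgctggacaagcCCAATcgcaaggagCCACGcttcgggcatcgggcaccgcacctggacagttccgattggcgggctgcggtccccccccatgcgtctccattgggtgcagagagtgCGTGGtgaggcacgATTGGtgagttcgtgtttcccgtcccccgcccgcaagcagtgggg
Pdia6: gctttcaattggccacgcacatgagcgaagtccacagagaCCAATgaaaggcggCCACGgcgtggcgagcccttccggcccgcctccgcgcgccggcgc
Calr: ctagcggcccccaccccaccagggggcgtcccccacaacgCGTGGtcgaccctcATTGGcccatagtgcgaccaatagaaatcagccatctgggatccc
Canx: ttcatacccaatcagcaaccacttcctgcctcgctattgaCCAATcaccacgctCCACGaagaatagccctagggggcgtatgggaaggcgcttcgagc

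The element began 65 bases before the start in *Hspa5*, 98 in *Pdia6* and 145 in *Canx*. In *Calr* it lay on the opposite strand, 162 bases before the start, so the capitals there read as the reverse complement. *Hsp90b1* held 2 copies, 1 on each strand, 212 and 107 bases before the start. The differences of these 5 genes ran from 0.32 (*Hspa5*) to 1.00 (*Pdia6*). *Pdia5* (1.18), *Pdia3* (1.05) and *Pdia4* (0.69) had a window without these letters, which says nothing of other forms of the element. Of the shorter motifs, ATTGGNCCACG was in 0 of the 42 windows (0.0444% of all genes). TGACGTGG, the core of the element that XBP1 binds, was in 3 of them, *Sec16b*, *Sec23a* and *Sec24d* (0.714% of all genes), whose differences were -0.0084, 1.03 and 0.17.

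Both transcription factors were over 1.3-fold higher. *Creb3l2* encodes a factor that is anchored in the ER membrane until it is cut free, and in mouse cartilage it switches on *Sec23a*. It lay at -0.43 in G9a-KO and -1.59 in WT (2.24-fold), below the 75th percentile on both arrays, and its other probe set gave 0.76. *Xbp1* was at 4.73 in G9a-KO and 4.23 in WT (1.41-fold), with 0.81, 0.63 and 0.17 by its other probe sets. The active form of XBP1 arises by splicing of its mRNA, which these levels do not resolve.

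The translocation channel went both ways. Its 11 genes, with a median of 0.17, included 2 over 1.3-fold higher and 2 lower, so the shares (18.2% each way) lay close to those of all genes. The 2 that were higher were *Sec61a2* and *Ssr4*. *Sec61a2*, the less common isoform of the channel pore, had 1.51 in G9a-KO and 0.67 in WT (1.80-fold), and its other probe set gave 0.95. The main pore gene *Sec61a1* was at 4.41 in G9a-KO and 4.15 in WT (1.20-fold), and all 5 of its other probe sets were higher in G9a-KO too, from 0.20 to 0.97. The small subunit *Sec61b* differed by 0.17. *Sec61g* shared its probe set with other genes and was not analysed here.

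The 4 genes of the translocon-associated protein complex, which helps some nascent chains into the channel, did not run together. *Ssr4*, which is X-linked, lay at 3.61 in G9a-KO and 2.78 in WT (1.77-fold), and both other probe sets were higher as well (0.45 and 0.34). *Ssr2* lay at 2.90 in G9a-KO and 3.50 in WT (1.51-fold lower), by its only probe set. *Ssr3* differed by 0.11. The deposited value of *Ssr1* was identical on both arrays, so its difference of 0.056 is only that between the arrays' 75th percentiles, and its other probe sets ran from -0.19 to 0.87. Among the partners of the channel, *Sec63*, which recruits BiP to it, was just inside the threshold (0.49 in G9a-KO and 0.12 in WT, 1.29-fold), with 0.36 to 0.88 by its 4 other probe sets. *Sec62* differed by -0.040 and *Tram1* by 0.20. *Tram2* depended wholly on the probe set. The brighter gave -0.93 in G9a-KO and -0.55 in WT (-0.38, just past the threshold), and the dimmer -1.16 in G9a-KO and -2.90 in WT (3.34-fold higher).

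Signal peptidase consists of a catalytic subunit, *Sec11a* or *Sec11c*, and of the Spcs subunits. Of its 5 genes, 2 were over 1.3-fold higher and 0 lower, against 17.4% and 17.2% over all genes. *Sec11c* had 2.07 in G9a-KO and 1.43 in WT (1.56-fold). Its other probe set, below the median, gave 0.29, so without probe sets open to several transcripts *Sec11c* was within 1.3-fold and 1 gene was higher. The other catalytic gene, *Sec11a*, had 3.91 in G9a-KO and 4.04 in WT (-0.14). *Spcs3* was at 3.14 in G9a-KO and 2.59 in WT (1.47-fold). *Spcs1* (0.046) and *Spcs2* (-0.18) lay within 1.3-fold.

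**Figure D2:**
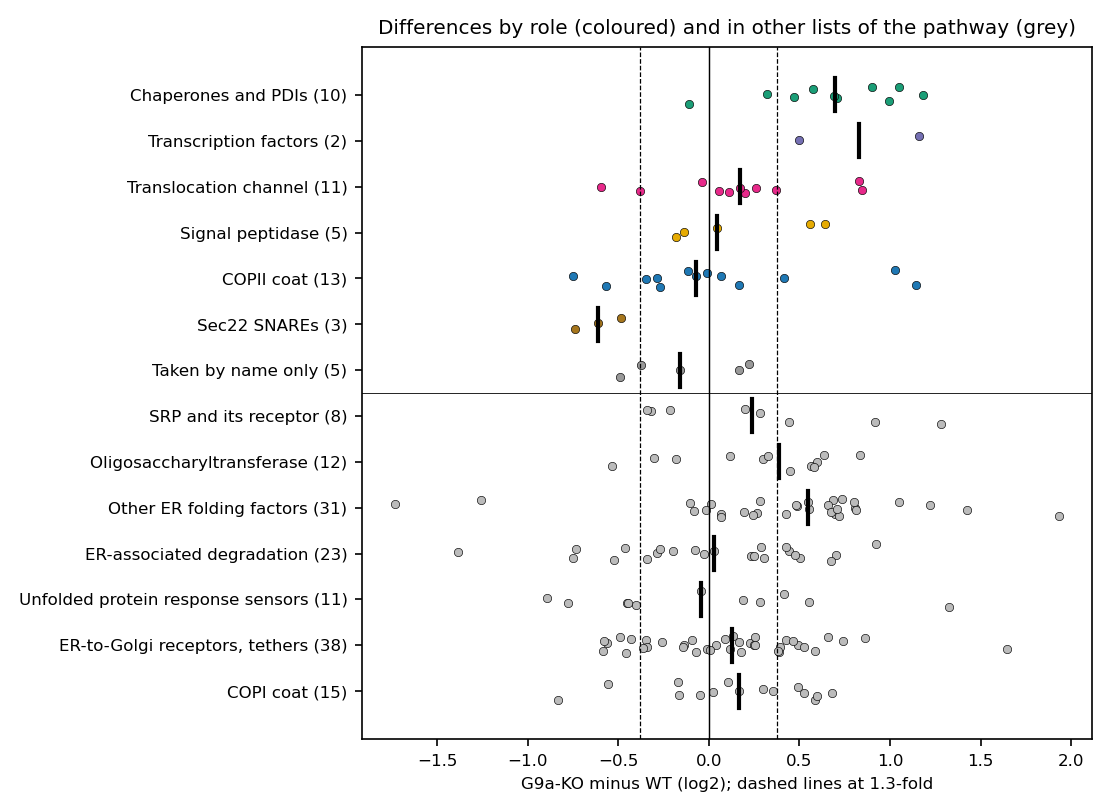
Difference between G9a-KO and WT (log2, horizontal axis, dashed lines at 1.3-fold) for the members by role (coloured) and for other genes of the pathway by list (grey), 1 point per gene with the number of genes in brackets, bars at the median. Of the 10 chaperone and disulfide isomerase genes 8 lie right of the upper dashed line. The COPII coat, drawn with genes of the ER exit sites, spreads from -0.75 to 1.14.

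The COPII coat, counted here with the exit-site genes *Sec16a*, *Sec16b* and *Sec23ip*, also had calls in both directions. Of 13 genes, 3 (23.1%) were over 1.3-fold higher and 2 (15.4%) lower, shares near those of all genes, and the median was -0.069. The 2 lower genes were *Sec16a* and *Sec23ip*. Under median centring 4 were lower, with *Sec13* and *Sec24b* added. With no shift 3 were lower, with *Sec13* (-0.41) added. Under the other settings no gene of the coat itself was lower. *Sar1a*, one of the GTPases that start the coat, lay at 3.22 in G9a-KO and 2.07 in WT (2.21-fold), but its other probe set, also above the 75th percentile, differed by -0.13. *Sar1b* was at 3.62 in G9a-KO and 3.69 in WT. *Sec23a*, an inner coat subunit, lay at 2.96 in G9a-KO and 1.93 in WT (2.04-fold), and its paralogue *Sec23b* at 3.11 in G9a-KO and 3.22 in WT (-0.12). Each of these pairs thus held 1 gene over 2-fold higher and 1 within 1.3-fold. *Sec23a* fell under 2-fold with no shift (0.97), under median centring (0.93) and under quantile normalization (0.999). Signal shared between close paralogues was not tested.

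The SEC24 proteins select cargo, and their genes differed in sign. *Sec24a* was at 2.40 in G9a-KO and 1.99 in WT (1.33-fold, within 1.3-fold under median centring and with no shift). Its other probe set was below the median on both arrays. *Sec24d* differed by 0.17, *Sec24c* by -0.27 and *Sec24b* by -0.29. In the outer coat, *Sec13* lay at 3.01 in G9a-KO and 3.35 in WT (-0.35) and *Sec31a* differed by 0.066. The scaffold of ER exit sites, *Sec16a*, had the lowest difference of all 49 genes, with 1.83 in G9a-KO and 2.59 in WT (1.68-fold lower), and its second probe set gave -0.63. *Sec16b* was near the bottom of both arrays (-4.18 in G9a-KO and -4.17 in WT). *Sec23ip*, whose product binds SEC23 at exit sites, was at 1.96 in G9a-KO and 2.53 in WT (-0.57), with -1.18 by its other probe set.

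All 3 Sec22 genes were over 1.3-fold lower. *Sec22b*, the SNARE that fuses vesicles between ER and Golgi, had 1.87 in G9a-KO and 2.48 in WT (1.53-fold lower), but its dimmer probe set differed by 0.23 in the opposite direction. *Sec22a* lay at 0.0023 in G9a-KO and 0.74 in WT (1.67-fold lower). *Sec22c* was at -0.81 in G9a-KO and -0.32 in WT (1.40-fold lower), and its other probe set gave -0.51. When the probe sets of each gene were averaged, only 1 of the 3 stayed past 1.3-fold. The name pattern also took 5 genes with no such role, namely the Sec14-like lipid-binding genes *Sec14l1* to *Sec14l4* and the fucosyltransferase gene *Sec1*. Of these, *Sec14l4* was lower (-1.30 in G9a-KO and -0.81 in WT) and the others stayed within 1.3-fold. Without the 5, the other 44 genes had 17 higher and 7 lower (median 0.17).

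**Figure D3:**
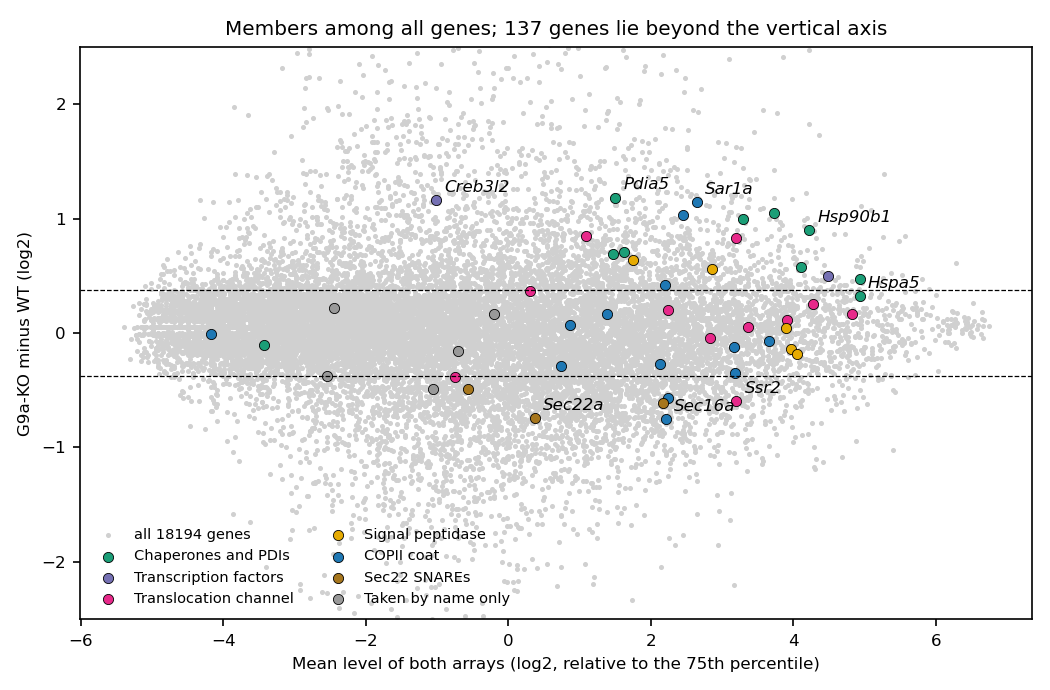
G9a-KO level minus WT level (vertical axis, log2, dashed lines at 1.3-fold) plotted over the mean of both levels (horizontal axis, log2, 0 at the 75th percentile) for all 18194 genes (light grey) and the 49 members (coloured by role), with 137 genes beyond the vertical range. Most members lie right of 0 on the horizontal axis, where 21.1% of all genes are over 1.3-fold higher and 23.2% lower.

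Probe sets of the same gene mostly ran the same way. Another probe set above the median on at least 1 array was there for 26 of the 49 genes. In 20 of these every such probe set differed in the same direction as the brightest. Of the 17 genes called higher, 11 had such a check and 10 passed it, the exception being *Sar1a*. Of the 8 called lower, 5 had one and 3 passed it, the exceptions being *Tram2* and *Sec22b*. The median was -2.13 in G9a-KO and -2.24 in WT, so a probe set above it in G9a-KO alone can only be higher there. The only check of *Pdia3*, of *Pdia6* and of *Tram2* was of this kind, as was the dimmest of *Hyou1*. These directions were fixed by the filter and check nothing. By the rule of the study, in which any probe set past the fold is enough, 22 members were higher and 8 lower, with 1 gene (*Tram2*) counted both ways. The channel then had 7 higher genes, against 2 by the brightest probe set. The shares over all genes by this rule were not computed, so these counts cannot be set against a background. A gene with more probe sets has more ways to pass.

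**Figure D4:**
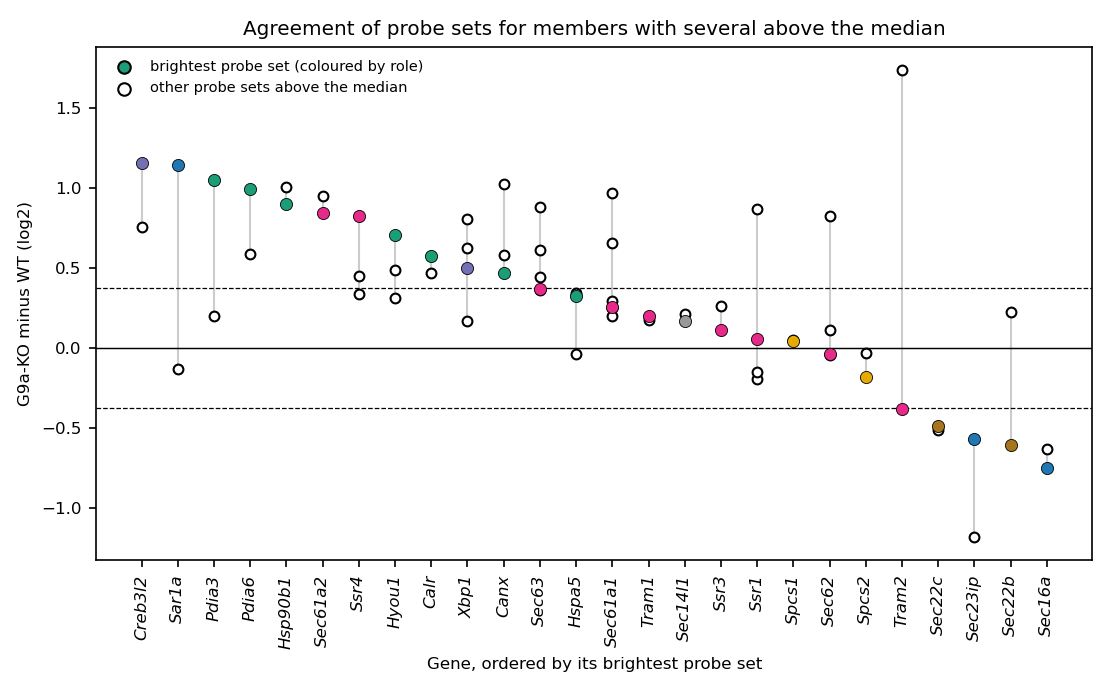
G9a-KO level minus WT level (vertical axis, log2, dashed lines at 1.3-fold) by the brightest probe set (filled, coloured by role) and by every other probe set above the median (open) for the 26 members that have one, ordered by the brightest. *Tram2* (-0.38 and 1.74) and *Sar1a* (1.14 and -0.13) have probe sets on both sides of 0, while those of *Calr* and *Sec22c* lie close together.

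Other genes of the same pathway were examined as lists of non-members. Factors that fold proteins beside the members were higher in most cases. With a median of 0.55, the 31 measured included 19 over 1.3-fold higher and 2 lower, against 17.4% and 17.2% over all genes. *Ero1a*, the oxidase that recharges the disulfide isomerases, lay at 3.63 in G9a-KO and 1.70 in WT (3.82-fold), and its 2 other probe sets gave 2.20 and 2.27. *Sil1*, an exchange factor for BiP, was 2.68-fold higher (2.34 in G9a-KO and 0.92 in WT). The prolyl isomerase gene *Fkbp14* (3.32-fold) and *Clgn* (2.39-fold), a calnexin relative of male germ cells, were the 2 that were lower, and both were dim in G9a-KO (-2.16 and -2.24). *P4hb*, the founding disulfide isomerase, is named after its value was seen, and lay at 4.77 in G9a-KO and 4.04 in WT (1.67-fold).

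Genes that act just before and during translocation had more higher than lower calls, where all genes gave 17.4% higher and 17.2% lower. Of 8 genes of the signal recognition particle and its receptor, which bring ribosomes to the ER, 3 were higher and 0 lower (2 and 2 under median centring), and their median was 0.24. *Srpr*, the receptor subunit, lay at 1.86 in G9a-KO and 0.57 in WT (2.43-fold). *Srp54b* (1.89-fold) has near-identical copies, so its value is uncertain, and *Srp72* was 1.36-fold higher. Of 12 genes of oligosaccharyltransferase, which attaches N-glycans as chains emerge, 6 were higher and 1 lower (median 0.39). Without probe sets open to several transcripts, 3 were higher and 0 lower. Log2 differences were 0.84 for *Rpn2*, 0.63 for *Rpn1*, 0.60 for *Ddost* and 0.58 for *Magt1*. All 4 other probe sets of *Rpn1* ran the same way (0.64 to 0.82).

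Genes that dispose of misfolded protein or sense it went both ways. Their counts stand beside 17.4% higher and 17.2% lower over all genes. In ER-associated degradation, 7 of 23 were higher and 5 lower (4 and 7 under median centring). Their median of 0.028 changed sign under median centring (-0.074) and with no shift (-0.028), and other choices of probe set put it at 0.23 to 0.32, with 11 higher and 5 lower by any probe set. *Herpud1* was 1.90-fold higher, whereas *Faf2* (2.61-fold), *Selenos* (1.68-fold) and *Ube2j1* (1.66-fold) were lower. Of 11 sensors and related membrane-bound factors, 3 were higher and 5 lower. Their median of -0.043 turned with the choice of probe set, to 0.12 by the mean over probe sets, 0.19 by the largest difference, 0.073 without probe sets open to several transcripts and -0.22 when dim probe sets were left out. *Atf6* lay at 0.64 in G9a-KO and -0.69 in WT (1.32), with 1.01 and 0.016 by its other probe sets. *Ern1*, the kinase and nuclease that splices *Xbp1*, was 1.47-fold higher, but its other probe set above the median gave only 0.081. *Creb3* (1.71-fold, with -1.02 to -0.13 by its other probe sets) and *Creb3l4* (1.86-fold) were lower. *Creb3l4* was dim, at -2.12 in G9a-KO and -1.23 in WT. On the branch that does not pass through *Xbp1*, *Ddit3* lay at 1.96 in G9a-KO and 0.15 in WT (3.50-fold), and *Atf4* at 4.30 in G9a-KO and 4.46 in WT (-0.16).

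Beyond the COPII coat, 12 of 38 genes for cargo receptors, tethers and fusion factors were higher and 6 lower (median 0.13). The counts were 7 and 9 when each array was centred on its median, so their balance turns with the scaling. *Kdelr3*, a receptor that returns escaped chaperones to the ER, lay at 2.54 in G9a-KO and 0.90 in WT (3.12-fold), and *Kdelr1* was 1.58-fold higher. The cargo adaptors *Tmed5* (1.81-fold) and *Tmed3* (1.67-fold) were higher too. Of 15 genes of the COPI coat, which runs the return path, 5 were higher and 2 lower (median 0.17). Both lists stand beside 17.4% higher and 17.2% lower over all genes. Log2 differences were 0.68 for *Copb1*, 0.59 for *Arf4*, 0.58 for *Copg2* and -0.56 for *Arfgap1*.

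Markers of primitive endoderm, a secretory lineage, differed far more on the same arrays. On the G9a-KO array 20 of the 23 measured were over 1.3-fold higher and 0 lower, with a median difference of 2.64 and a mean level of 1.40 in G9a-KO and -1.41 in WT, and all 23 were above the median on at least 1 array. *Cubn* (56.3-fold), *Srgn* (55.4-fold) and *Col4a1* (31.0-fold) led. Several markers were above the median on the G9a-KO array only, among them *Cubn*, at -3.04 in WT where the median was -2.24. Their folds were thus taken against WT signal near background. *Serpinh1*, the ER chaperone of collagen, lay at 2.95 in G9a-KO and 0.24 in WT (6.52-fold). Of 19 markers of fibroblasts, the feeder cell type, 5 were higher and 1 lower, where all genes gave 17.4% and 17.2%. The mean level of all 19 was -1.83 in G9a-KO and -2.10 in WT. Only 8 of them were above the median on at least 1 array. Of these 8, 4 were higher and 0 lower, with a median difference of 0.39. *Fn1* (3.05-fold), *Col6a3* (2.58-fold) and *Col1a2* (1.78-fold) were higher, whereas the collagen genes *Col1a1* (-2.41 in G9a-KO and -2.65 in WT) and *Col3a1* (-4.55 in G9a-KO and -4.61 in WT) were below the median on both arrays. Both were named with their values already known, outside the rule for named genes. The part of either cell type in the values of the folding, channel and coat genes was not tested. In bulk RNA, more cells of a type and more RNA of it per cell cannot be told apart.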

How the data were processed

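Total RNA was labelled from 200 ng and hybridised to 1 Affymetrix array per group. The authors deposited log2 values, which the submitters' processing notes credit to RMA and R 3.2.1. The package was not given in the sources used here. Usually RMA equalises probe intensities between arrays before they are summarised, so total RNA per cell cannot be read from them. Following the study's methods, the 75th percentile of each array (7.31 in G9a-KO and 7.37 in WT) was subtracted, and differences were taken as G9a-KO level minus WT level. A call is a difference past 1.3-fold or 2-fold, with no test. Genes were named from the platform annotation (34958 probe sets with 1 symbol, 932 with several, 9211 unnamed here), and all 49 members matched RefSeq by gene ID. The probe set with the highest mean stands for a gene. All members may be named. From each pathway list up to 4 genes are named, and from each marker list up to 3, by largest absolute difference among genes above the median whose other probe sets above it run the same way. *Ehmt2*, *Atf4*, *Ddit3* and *Serpinh1* were added. Members and lists were chosen with earlier results of these data known. Promoter sequences and motif counts are from RefSeq (GRCm38.p6). Protein sequences were not used here. The steps were tested on simulated data. Python 3.11.15, pandas 2.3.3 and statsmodels 0.14.6 were used. The alternatives were other scalings (no shift, median, quantile, lowess with span 0.3), a filter on dim probe sets, and other choices of probe set or members.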

Additional observations from a re-analysis of the deposited data

How the results depend on the processing

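The number of genes over 1.3-fold higher stayed within 1.5 times of 17 under every alternative run, from 12 without the probe sets whose endings mark possible binding to several transcripts to 22 with any probe set or with the one of largest difference. Of the 17, 15 were called again under median centring and 11 without those probe sets, where 40 of the 49 genes had a value. The number over 1.3-fold lower was 5, not 8, with the mean over probe sets. The number over 2-fold higher, 5, was the least settled, with 3 under no shift and under median centring, 2 with the mean over probe sets and 9 with the largest difference or any probe set, and the same last 2 settings gave 1 over 2-fold lower (*Sec23ip*). The median of the 49 genes was 0.052 without the probe sets of those endings. In the COPII coat, counted with genes of the exit sites, 4 genes were lower under median centring and 3 with no shift. *Sar1a* turned to -0.13 without those endings, and *Tram2* to 0.68 with the mean over probe sets and 1.74 with the largest difference. The cause was not tested beyond the choice of probe set itself. The folding genes called higher numbered 6 to 8 in all alternatives and 0 were lower. With 1 array per group, signal near background (the 4 members below the median) and single probe sets limit the precision, and differences near 0.38 on the log2 scale, such as those of *Sec63* and *Tram2*, lie on the threshold itself.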

Other observations

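The ERSE was also in the windows of 32 genes outside the 49, of which 15 were measured. Of these 15, 3 were over 1.3-fold higher in G9a-KO and 2 lower, with a median of 0.11 and a range of -1.26 to 0.80, against 17.4% higher and 17.2% lower over all genes. ATTGGNCCACG was in 12 windows, none of them of the 49 genes, and of the 9 genes measured 4 were higher and 1 lower (median 0.23). TGACGTGG was in 190 windows of genes outside the 49, and of the 140 genes measured 27 were higher and 25 lower (median 0.056), close to the shares over all genes. The members sat on 18 chromosomes.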
